A study of Mus musculus with 28 samples.

Results

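The genes described here are 10 genes known for their use in regulatory T cells (Treg): Foxp3, Ikzf2, Ctla4, Il2ra, Izumo1r, Ccr8, Tnfrsf18, Tnfrsf4, Tnfrsf9 and Il10. They were listed by name, with earlier results of these data known. They are 10 of the 17097 genes measured and have 14 probe sets that name them alone, and the brightest of them, by its mean on the 28 arrays, stands for each gene. RNA came from leukocytes sorted by CD45 out of tumours of B16.F10, a mouse melanoma line, or MC38, a mouse colon carcinoma line. All hosts carried a Cre recombinase with YFP under the control of Foxp3 (Foxp3Cre-YFP). The controls had no other allele named, and the hosts called Nrp1-deleted here (Nrp1L/LFoxp3Cre-YFP) also carried floxed Nrp1, which encodes the co-receptor neuropilin-1 and is lost in cells that have expressed Foxp3. The labels give no age or sex of the hosts and do not say whether replicates came from separate mice, so p-values reflect only how far these arrays spread, which may be technical. B16 tumours were taken early (day 8 in the titles, day 6 in the source names), on day 12 and on day 18, and MC38 tumours on days 6, 12 and 18, each with both genotypes. The 28 arrays thus form 12 groups, of which 4 (B16 day 18 and MC38 day 12) hold 3 arrays and 8 hold 2.

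Treg are CD4 T cells that restrain other T cells, and they gather in tumours. Foxp3 is their lineage-defining transcription factor, and Ikzf2 (Helios) is a zinc finger factor found in most of them. Their surface proteins include CTLA-4, which takes the ligands CD80 and CD86 from the activating receptor CD28, the IL-2 receptor alpha chain CD25 (Il2ra), the folate receptor family member encoded by Izumo1r, the chemokine receptor CCR8, and the TNF receptor family members GITR (Tnfrsf18), OX40 (Tnfrsf4) and CD137 (Tnfrsf9). IL-10 is a suppressive cytokine that Treg and also macrophages secrete. Activated CD8 and conventional CD4 T cells use several of the same genes, among them Ctla4, Il2ra and the TNF receptor genes, and some NK and innate lymphoid cells do too. In a mixture of leukocytes these genes therefore do not mark Treg alone.

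Promoter windows from RefSeq (build GRCm38.p6, from 250 bases before to 50 after a transcription start) were at hand for 8 of the 10 genes, 10 windows in all. Ikzf2 and Il10 had none in the table. The windows of Ctla4 and of the TNF receptor genes are printed because these 4 genes varied together over the arrays, as described further on, and because Tnfrsf4 and Tnfrsf18 are neighbours on chromosome 4 with 0 protein-coding genes between them. Capitals mark matches to 3 motifs, searched on both strands: TTCNNNGAA (bound by STAT factors), the NF-kappaB consensus and TGANTCA (AP-1).
Ctla4, chr1:60908775-60909074, plus strand: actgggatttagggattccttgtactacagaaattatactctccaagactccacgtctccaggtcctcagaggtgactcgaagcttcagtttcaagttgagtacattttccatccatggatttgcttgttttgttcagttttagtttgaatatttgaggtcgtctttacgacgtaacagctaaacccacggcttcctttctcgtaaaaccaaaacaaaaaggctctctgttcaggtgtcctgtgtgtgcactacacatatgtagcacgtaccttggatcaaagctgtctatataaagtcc
Tnfrsf18, chr4:156026072-156026371, plus strand: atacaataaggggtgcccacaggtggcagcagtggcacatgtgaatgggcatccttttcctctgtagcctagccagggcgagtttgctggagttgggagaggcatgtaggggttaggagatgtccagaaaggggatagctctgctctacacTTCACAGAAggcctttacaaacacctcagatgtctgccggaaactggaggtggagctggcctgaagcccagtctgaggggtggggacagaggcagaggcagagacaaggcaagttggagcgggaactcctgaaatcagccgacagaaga
Tnfrsf4, chr4:156013445-156013744, plus strand: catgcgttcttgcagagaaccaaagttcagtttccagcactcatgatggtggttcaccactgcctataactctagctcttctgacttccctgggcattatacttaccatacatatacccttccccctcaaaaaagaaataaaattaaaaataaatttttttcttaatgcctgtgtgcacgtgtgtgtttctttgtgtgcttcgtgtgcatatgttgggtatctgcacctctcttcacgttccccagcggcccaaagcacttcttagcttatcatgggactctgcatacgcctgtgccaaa
Tnfrsf9, chr4:150927749-150928048, plus strand: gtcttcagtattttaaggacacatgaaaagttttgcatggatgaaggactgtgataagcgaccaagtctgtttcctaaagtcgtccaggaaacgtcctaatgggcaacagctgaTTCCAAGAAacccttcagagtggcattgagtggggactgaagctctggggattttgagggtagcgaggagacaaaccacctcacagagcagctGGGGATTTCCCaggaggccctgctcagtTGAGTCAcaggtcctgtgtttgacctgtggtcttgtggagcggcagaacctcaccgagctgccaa

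The Tnfrsf18 window held 1 match, the STAT letters TTCACAGAA at bases 152 to 160 of the window. The Tnfrsf9 window held the STAT letters TTCCAAGAA at bases 115 to 123, 2 overlapping NF-kappaB matches at 208 to 217 (GGGGATTTCC) and 209 to 218 (GGGATTTCCC), and the AP-1 letters TGAGTCA at 236 to 242. The Il2ra window held 2 overlapping NF-kappaB matches, 1 of the 2 windows of Foxp3 held the STAT letters, and the windows of Ctla4, Tnfrsf4, Izumo1r and Ccr8 and the other Tnfrsf9 window held none. Of 32851 windows of 300 bases in the table, 8.30% held the STAT letters, 8.46% the NF-kappaB consensus and 7.81% the AP-1 letters. No motif of the 3 was thus found in all 4 printed windows, and the STAT letters were found in 2 of them. For Tnfrsf9 the window with matches was printed and the one without was not, so the count of 2 depends on that choice.

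The deposited log2 values fell into 3 sets of arrays by their distribution, with mean values of 4.96 (B16 early and day 12), 4.83 (MC38 day 6 and day 18) and 4.63 (B16 day 18 and MC38 day 12). Every genotype difference at 1 tumour and day lies inside a set, as do the differences between days used here, but a level in 1 set cannot be set cleanly against a level in another. The leukocyte markers Ptprc (CD45) and Coro1a were bright on all arrays, with means between 11.62 and 12.63. Nrp1 fell by 0.84 ± 0.09 in Nrp1-deleted hosts on the log2 scale over all tumours and days (adjusted p = 1.65e-07), although its probe set may lie outside the floxed part and other leukocytes express it. CD3 RNA differed among replicates in MC38. The mean log2 value of the CD3 chain genes (Cd3d, Cd3e, Cd3g and Cd247) at MC38 day 12 was 7.46, 8.46 and 6.47 on control arrays and 8.12, 7.96 and 9.10 on deleted arrays. Of the arrays numbered 3, the control was thus the lowest and the deleted one the highest. Control replicate 2 lay about as far above control replicate 1 as control replicate 3 lay below it. MC38 day 6 deleted replicate 2 (9.38, against 8.68 on its partner) differed too, though of 2 arrays neither can be called the odd one. Many, but not all, results of the 10 genes that these 3 arrays move by over 1.5 times are given with and without them. A result given only with all arrays is not thereby shown to be stable. The 3 were picked after seeing the data, as a control low in CD3 RNA and 2 deleted arrays high in it. Leaving them out lowers the CD3 difference between genotypes over all tumours and days from 0.94 to 0.74. It can also narrow the spread, so p-values without any of them are not on a par with those of the full fit. Without all 3, MC38 day 6 deleted holds 1 array, and effect sizes alone are given.

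**Figure D1:**
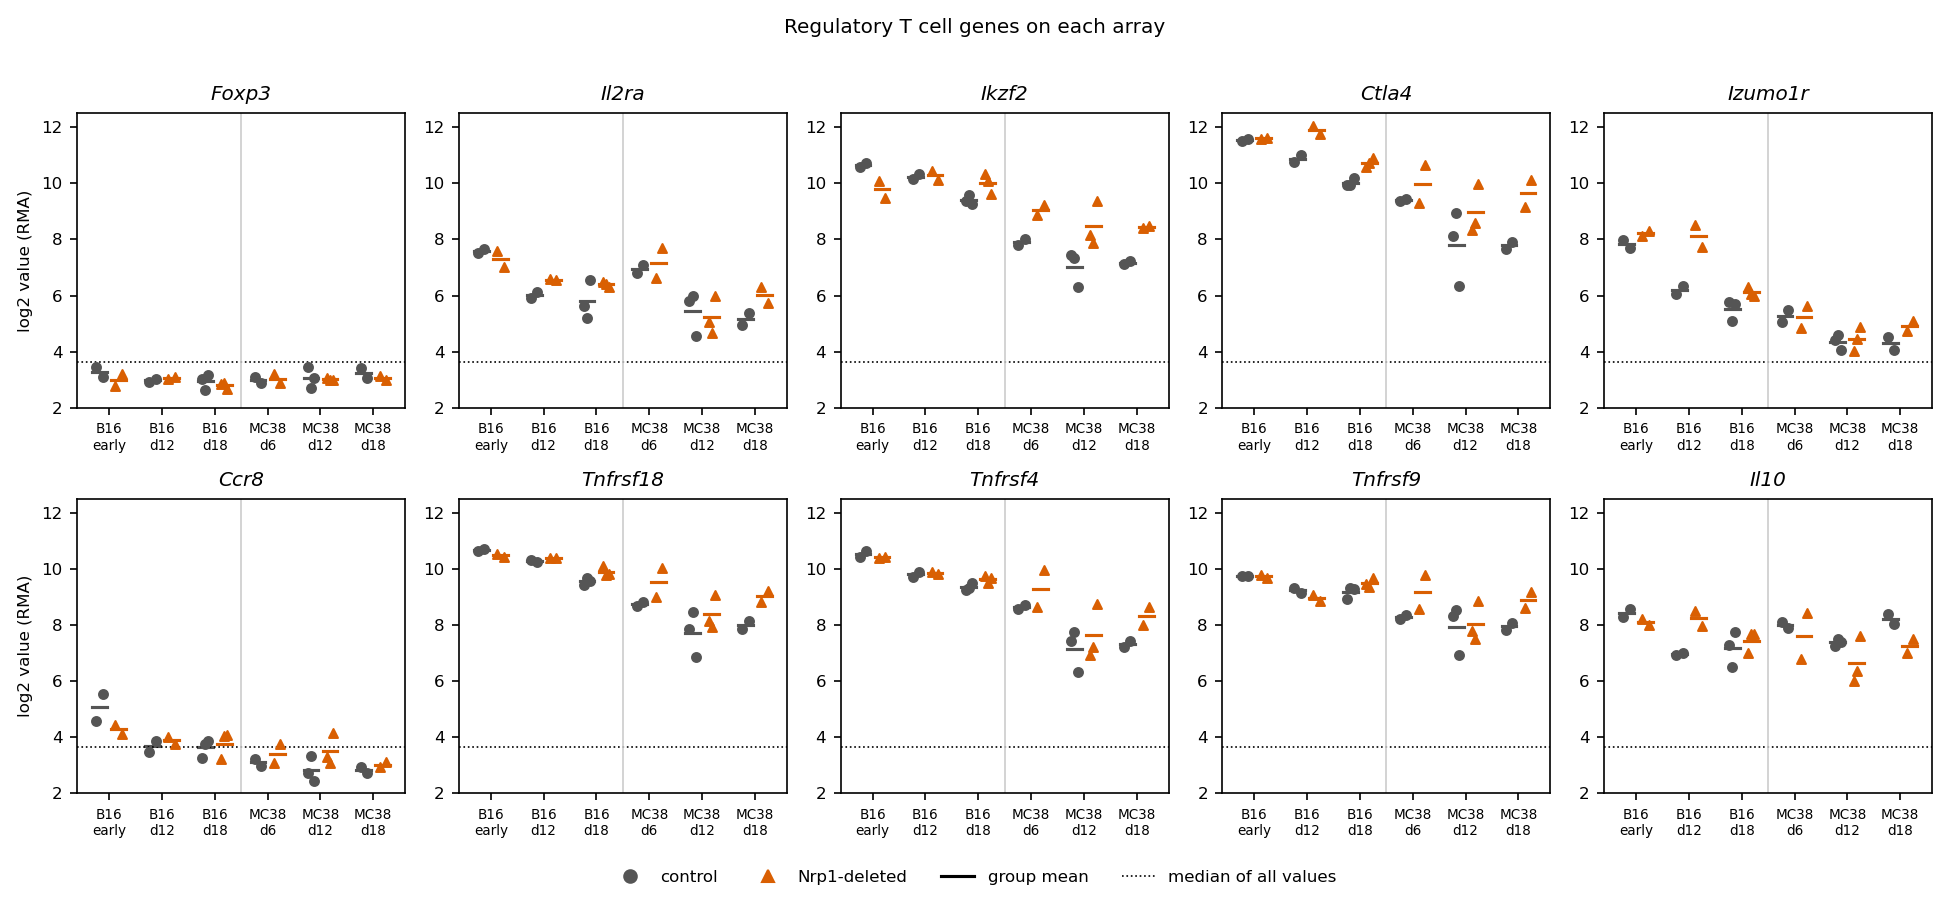
Each panel plots the deposited log2 value of 1 gene on each array (points) and the group mean (short line) by tumour and day, with control hosts as grey circles and Nrp1-deleted hosts as orange triangles. The dotted line is the median of all values, 3.64: all Foxp3 values lie under it and 13 of 28 Ccr8 values lie above it, while the other 8 genes lie above it on all 28 arrays.

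Foxp3 itself was not measurable above the lower end of the arrays. Its log2 values ran from 2.65 to 3.44, and 0 of 28 arrays lay above the median of all values, 3.64. Control and deleted groups differed by -0.08 ± 0.08 (SE) as a mean of the 6 combinations of tumour and day, called settings here (adjusted p = 0.522), and neither tumour gave a call. A value this low does not show that Foxp3 RNA was absent, and the only probe set that names Foxp3 alone limits what can be said. A pair of probe sets that name either Foxp3 or its neighbour Ccdc22 were brighter, with means of 6.55 and 6.31. They gave -0.39 ± 0.07 (adjusted p = 0.000295) and 0.04 ± 0.09 (adjusted p = 0.849), disagree with each other, and cannot be assigned to either gene. The label regulatory T cell genes therefore stands here for a list of names: its defining gene gave no usable level, and what the other 9 show is the RNA of all CD45+ cells that use them.

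Over the 6 settings together, 4 of the 10 genes rose in Nrp1-deleted hosts and 0 fell. Ctla4 rose by 0.90 ± 0.21 (1.86-fold, adjusted p = 0.0018), Ikzf2 by 0.61 ± 0.13 (1.52-fold, adjusted p = 0.0012), Izumo1r by 0.60 ± 0.12 (1.51-fold, adjusted p = 0.000439) and Tnfrsf18 by 0.45 ± 0.14 (1.37-fold, adjusted p = 0.014). Without the 3 MC38 arrays named above, a choice made after seeing the data, Ctla4 was at 0.58, Ikzf2 at 0.44, Izumo1r at 0.47, Tnfrsf18 at 0.24 and Il10 at -0.36. Of all genes tested, 11.0% rose and 17.9% fell in the same comparison (28.8% either way), and the median difference was 0.36 for the 10 genes and -0.03 for all genes. Each difference is deleted minus control in log2 units, from limma fitted to the 12 group means, with Benjamini-Hochberg adjustment over all 17097 genes at 0.05. The other 6 genes were not called: Tnfrsf4 (0.39 ± 0.17, adjusted p = 0.0898), Tnfrsf9 (0.33 ± 0.16), Il2ra (0.29 ± 0.17), Ccr8 (0.12 ± 0.14), Foxp3 and Il10 (-0.14 ± 0.17). Without the 3 arrays Tnfrsf4 was at 0.12, Tnfrsf9 and Il2ra at 0.07 and Ccr8 at -0.02. In RNA of a mixed population, fewer cells of a type and less RNA per cell cannot be told apart, and the same holds for more.

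The tumours differed in which genes carried this. In MC38, 5 genes rose (Ikzf2, Ctla4, Tnfrsf18, Tnfrsf4 and Tnfrsf9), against 6.97% of all genes, and Il10 fell, against 12.3% of all genes. In B16 only Izumo1r among the 10 rose, by 0.97 ± 0.17 (1.96-fold, adjusted p = 0.000122), against 10.3% of all genes, and 0 fell. The test of the difference between the tumours' effects called 3 genes: Ikzf2 (-1.35 ± 0.27, B16 minus MC38, adjusted p = 0.00122), Izumo1r (0.75 ± 0.24, adjusted p = 0.0384) and Il10 (1.11 ± 0.34, adjusted p = 0.0309). Of all genes, 6.75% were called higher and 7.22% lower in that test. Tnfrsf18 (-0.73 ± 0.28, adjusted p = 0.0805), Tnfrsf9 (-0.65 ± 0.31), Tnfrsf4 (-0.64 ± 0.33), Ctla4 (-0.60 ± 0.42) and Ccr8 (-0.53 ± 0.28) had larger estimates in MC38, but their differences between tumours were not called. Without the 3 MC38 arrays the 3 called differences were -1.02, 1.00 and 1.54. Ctla4 was then at 0.03, Tnfrsf4 at -0.09, Tnfrsf9 at -0.14, Ccr8 at -0.25 and Tnfrsf18 at -0.30, so that the larger Ctla4 estimate in MC38 was gone. The Izumo1r and Il10 differences rest on few arrays: with 1 array left out they were called in 15 and 19 of 28 fits, with adjusted p up to 0.0983 (without B16 day 12 deleted replicate 1) and 0.0726 (without MC38 day 6 deleted replicate 1).

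Day by day, limma made 5 calls among the 10 genes, all of them rises, and each stands with its gene further on. At early B16, B16 day 18 and MC38 day 6, 0 of the 10 genes were called, while 0.445%, 18.8% and 2.97% of all genes were. Of the 10 genes, 2, 2 and 3 had an unadjusted p under 0.05 there. The shares of all genes are at the adjusted threshold. None at the unadjusted threshold is given here or further on, so the unadjusted counts have no background beside them. The array values were also compared without a fit, by whether all deleted arrays lay above or below all controls of the same tumour and day. At early B16, 1 gene lay above and 4 below (21.2% and 22.9% of all genes), at B16 day 12 6 above and 1 below (31.6% and 24.1%), and at B16 day 18 6 above and 0 below (13.6% and 15.8%). In MC38 the counts were 3 above and 0 below on day 6 (16.2% and 25.9%), 1 above and 0 below on day 12 (8.38% and 17.1%), and 7 above and 1 below on day 18 (19.7% and 32.6%). The early B16 day thus had most of its separated genes below the controls, and MC38 day 18 had most of its genes above them.

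**Figure D2:**
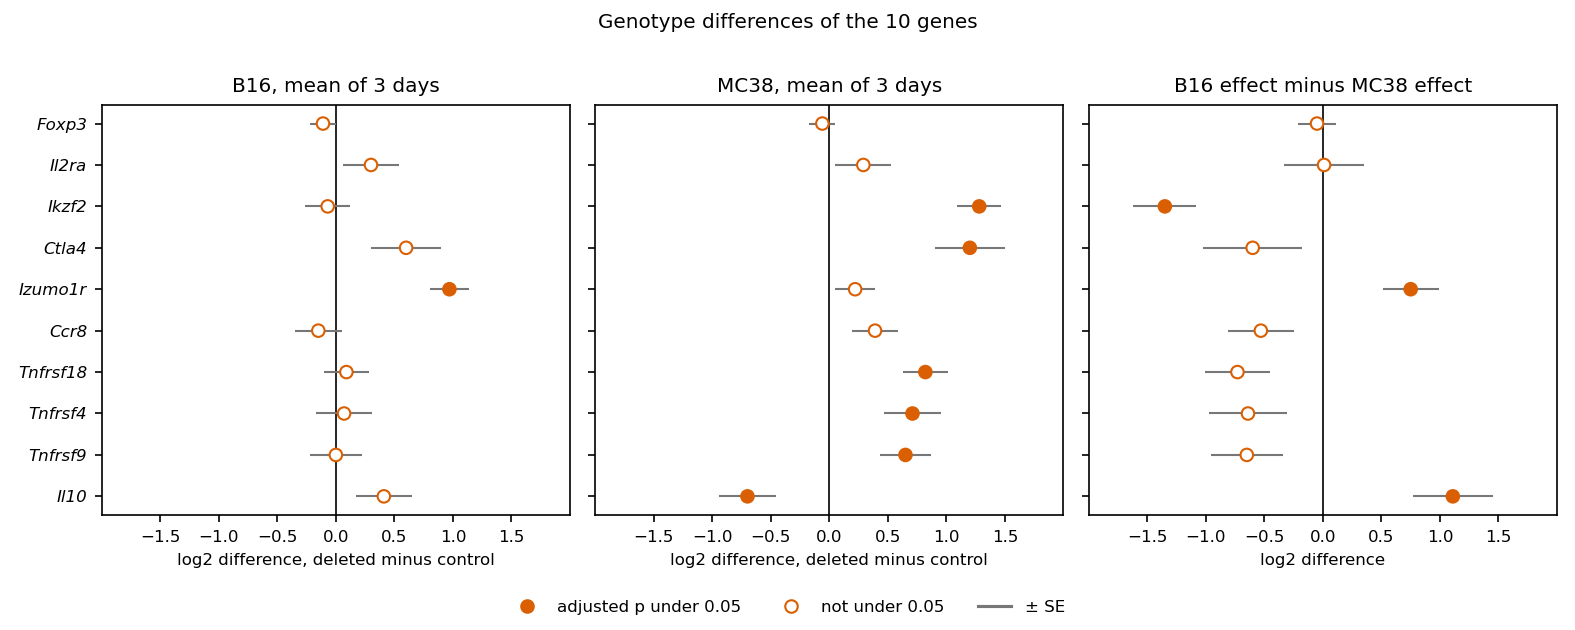
The log2 difference between Nrp1-deleted and control hosts (x axis, points, with the SE as a line) is plotted for each gene (y axis) as the mean of 3 days in B16 (left), in MC38 (middle), and as the B16 effect minus the MC38 effect (right). Filled points have an adjusted p under 0.05: Izumo1r in B16, 6 genes in MC38, and Ikzf2, Izumo1r and Il10 in the difference.

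Ikzf2, the gene for Helios, rose in MC38 and was not called in B16. At MC38 day 6 the deposited log2 values were 7.81 and 8.02 on control arrays and 8.88 and 9.24 on deleted arrays. By day 12 they were 7.44, 7.33 and 6.32 versus 8.17, 7.88 and 9.38, and on day 18 7.13 and 7.22 versus 8.39 and 8.49. All deleted arrays lay above all control arrays at each MC38 day, and in the set of days 6 and 18 the order was deleted day 6, deleted day 18, control day 6 and control day 18, with no overlap between neighbours. The MC38 rise was 1.28 ± 0.19 (2.44-fold, adjusted p = 4.31e-05) and remained past the threshold with any 1 array left out. It was 1.02 (adjusted p = 2.95e-06) without both day 12 arrays numbered 3.

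In early B16 tumours the Ikzf2 values were 10.58 and 10.72 on control arrays and 10.09 and 9.48 on deleted arrays. They were 10.14 and 10.32 versus 10.45 and 10.13 on day 12, and 9.36, 9.57 and 9.27 versus 10.31, 10.07 and 9.60 on day 18. The deleted arrays thus lay below the controls early, overlapped them on day 12 and lay above them on day 18, and the B16 mean was -0.07 ± 0.19 (adjusted p = 0.858). Day by day, limma called Ikzf2 at MC38 day 12 (1.45 ± 0.29, adjusted p = 0.00235) and day 18 (1.26 ± 0.35, adjusted p = 0.0357), where 3.71% and 3.12% of all genes rose. Day 6 gave 1.14 ± 0.35 (adjusted p = 0.0806), the early B16 value was -0.86 ± 0.35 (adjusted p = 0.4) and that at B16 day 18 0.60 ± 0.29 (adjusted p = 0.171). Without both arrays numbered 3 the MC38 day 12 value of Ikzf2 was 0.64 (adjusted p = 0.0837), and the day 18 call was lost without any 1 of its 4 arrays, with adjusted p up to 0.186. The dimmer Ikzf2 probe set (mean 4.16) gave 0.12 ± 0.20 in MC38 (adjusted p = 0.769), so the result belongs to the brighter one.

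Ctla4, the gene for the inhibitory receptor CTLA-4, had positive differences in all 6 settings, as did 5.16% of all genes. Early B16 values were 11.52 and 11.59 on control arrays and 11.59 and 11.62 on deleted arrays. They were 10.74 and 11.00 versus 12.03 and 11.76 on day 12, and 9.92, 9.93 and 10.19 versus 10.58, 10.72 and 10.90 on day 18. The deleted arrays lay above all controls at B16 days 12 and 18 and overlapped them early. In B16 the mean difference was 0.60 ± 0.30 and was not called (adjusted p = 0.168).

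MC38 values of Ctla4 were 9.36 and 9.43 on control and 9.31 and 10.64 on deleted arrays on day 6. They were 8.13, 8.93 and 6.35 versus 8.32, 8.60 and 9.98 on day 12, and 7.66 and 7.91 versus 9.14 and 10.13 on day 18. The groups overlapped on days 6 and 12 and were apart on day 18, and the widest spread on day 12 came from the arrays numbered 3, lowest among controls and highest among deleted. Ctla4 rose in MC38 by 1.20 ± 0.30 (2.30-fold, adjusted p = 0.00526) and by 0.79 (adjusted p = 0.00378) without both day 12 arrays numbered 3. Its difference was 0.57 without MC38 day 6 deleted replicate 2 as well. Without the arrays numbered 3, the day 12 value moved from 1.16 ± 0.44 (adjusted p = 0.108) to -0.07 (adjusted p = 0.946). The largest value was on day 18, 1.85 ± 0.54 (3.61-fold, adjusted p = 0.0476), a call that held in 7 of 28 fits with 1 array left out and had an adjusted p of 0.377 without day 18 deleted replicate 2.

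Of the 5 genes of the CD28 and CTLA-4 pathway, 2 rose over the 6 settings and 1 fell. The T cell genes Cd28 and Icos, which flank Ctla4 on chromosome 1 with 0 protein-coding genes between them, rose by 1.41 ± 0.16 (adjusted p = 6.99e-07) and 1.20 ± 0.21 (adjusted p = 0.000121). Icosl, the ligand of ICOS, fell by 0.44 ± 0.08 (adjusted p = 0.000241). The CTLA-4 ligand genes Cd80 and Cd86 were not called over the 6 settings. In B16 they fell by 0.94 ± 0.18 (adjusted p = 0.000359) and 0.24 ± 0.07 (adjusted p = 0.0193), and in MC38 they gave 0.43 ± 0.18 and 0.17 ± 0.07, neither called. The test between tumours called both (-1.37 ± 0.25 and -0.41 ± 0.11, adjusted p = 0.000608 and 0.009).

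The 3 TNF receptor genes, Tnfrsf18, Tnfrsf4 and Tnfrsf9, encode co-stimulatory receptors and rose in MC38. For Tnfrsf18 the MC38 values were 8.67 and 8.80 on control and 8.98 and 10.04 on deleted arrays on day 6. They were 7.85, 8.46 and 6.85 versus 8.15, 7.93 and 9.07 on day 12, and 7.87 and 8.12 versus 8.82 and 9.22 on day 18. The groups were apart on days 6 and 18 and overlapped on day 12. Tnfrsf18 rose by 0.82 ± 0.19 (1.77-fold, adjusted p = 0.0039) and by 0.56 (adjusted p = 0.00456) without both day 12 arrays numbered 3. Its difference was 0.39 without day 6 deleted replicate 2 as well. Its B16 values differed little between genotypes: 10.63 and 10.71 versus 10.53 and 10.43 early, 10.30 and 10.25 versus 10.38 and 10.39 on day 12, and 9.42, 9.66 and 9.57 versus 10.09, 9.77 and 9.82 on day 18. The B16 mean was 0.09 ± 0.19 (adjusted p = 0.818), below controls early and above them on days 12 and 18.

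Tnfrsf4 had MC38 values of 8.56 and 8.70 on control and 8.63 and 9.94 on deleted arrays on day 6. They were 7.41, 7.74 and 6.31 versus 6.94, 7.21 and 8.75 on day 12, and 7.22 and 7.41 versus 7.98 and 8.62 on day 18. Only on day 18 were its MC38 groups apart. Tnfrsf9 values in MC38 were 8.21 and 8.36 versus 8.58 and 9.79 on day 6. They were 8.33, 8.52 and 6.93 versus 7.79, 7.48 and 8.85 on day 12, and 7.82 and 8.07 versus 8.60 and 9.17 on day 18. Its groups were apart on days 6 and 18, and on day 12 control replicate 3 and deleted replicate 3 again lay at the ends.

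The MC38 differences of Tnfrsf4 (0.71 ± 0.24, adjusted p = 0.0378) and Tnfrsf9 (0.65 ± 0.22, adjusted p = 0.0414) passed the threshold narrowly. Both calls were lost without MC38 day 6 deleted replicate 2 (adjusted p = 0.179 and 0.19). Each held in 20 of 28 fits with 1 array left out, and the others that ended both were either day 6 control, either day 12 array numbered 3, either day 18 control and day 18 deleted replicate 2. Without both arrays numbered 3, Tnfrsf4 was at 0.38 (adjusted p = 0.0881) and Tnfrsf9 at 0.35 (adjusted p = 0.109), and without day 6 deleted replicate 2 as well they were at 0.16 and 0.15. At MC38 day 12 Tnfrsf9 was -0.79 without both arrays numbered 3 and day 6 deleted replicate 2, against 0.12 ± 0.33 with all arrays. A second Tnfrsf9 probe set (mean 8.33) also rose in MC38 (0.79 ± 0.26, adjusted p = 0.0399), while the third (mean 2.91) lay under the median of all values on all 28 arrays.

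In B16, Tnfrsf4 and Tnfrsf9 showed no common direction. Tnfrsf4 values were 10.42 and 10.64 versus 10.39 and 10.43 early, 9.72 and 9.87 versus 9.87 and 9.80 on day 12, and 9.23, 9.30 and 9.48 versus 9.74, 9.50 and 9.66 on day 18. Tnfrsf9 values were 9.75 and 9.75 versus 9.79 and 9.66 early, 9.33 and 9.14 versus 9.05 and 8.86 on day 12, and 8.93, 9.32 and 9.29 versus 9.46, 9.34 and 9.67 on day 18. Both genes lay above controls on day 18, Tnfrsf9 lay below on day 12, and the other groups overlapped. The B16 means were 0.07 ± 0.24 and 0.00 ± 0.22 (adjusted p = 0.89 and 0.996).

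The ligands of these receptors fell in B16. Tnfsf4, the OX40 ligand, fell by 1.31 ± 0.17 (adjusted p = 2.98e-06), and Tnfsf9, the CD137 ligand, fell by 1.06 ± 0.17 (adjusted p = 4.37e-05). In MC38, Tnfsf9 fell by 0.49 ± 0.17 (adjusted p = 0.0466) and Tnfsf4 was at -0.24 ± 0.17 and not called, and the tumours' effects differed for Tnfsf4 (-1.06 ± 0.24, adjusted p = 0.00374) but were not called different for Tnfsf9 (adjusted p = 0.123). Of the 9 measured genes of TNF receptor co-stimulation, Traf5, an adaptor of these receptors, rose over the 6 settings (0.43 ± 0.07, adjusted p = 6.58e-05), and both ligands fell. The GITR ligand Tnfsf18 was not measured by a probe set that names it alone.

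Il2ra, the gene for CD25, was not called between genotypes by its main probe set. Its B16 values were 7.52 and 7.64 on control and 7.60 and 7.03 on deleted arrays early, 5.92 and 6.12 versus 6.59 and 6.55 on day 12, and 5.61, 5.20 and 6.55 versus 6.49, 6.41 and 6.31 on day 18. In MC38 they were 6.81 and 7.08 versus 6.61 and 7.68 on day 6, 5.82, 5.98 and 4.55 versus 5.04, 4.66 and 5.99 on day 12, and 4.94 and 5.36 versus 6.32 and 5.73 on day 18. The deleted arrays lay above the controls at B16 day 12 and MC38 day 18 and overlapped them elsewhere. The mean over the 6 settings was 0.29 ± 0.17 (adjusted p = 0.234), but a dimmer probe set (mean 5.27) gave 0.48 ± 0.16 (adjusted p = 0.0299), so the call depends on the probe set.

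Of 10 measured genes of IL-2 signalling, 7 rose over the 6 settings and 0 fell, with a median of 0.41 versus -0.03 for all genes. Il2, the cytokine gene, rose by 0.86 ± 0.14 (adjusted p = 4.39e-05), the receptor beta chain Il2rb by 0.80 ± 0.13 (adjusted p = 5.12e-05), the kinase Jak1 by 0.54 ± 0.05 (adjusted p = 2.4e-08) and the survival gene Bcl2 by 0.45 ± 0.08 (adjusted p = 0.000109). Bcl2 rose in MC38 (0.78 ± 0.11) and not in B16 (0.12 ± 0.11), and the tumours' effects differed (-0.66 ± 0.16, adjusted p = 0.0058). NK cells and CD8 T cells use Il2rb as well.

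Izumo1r, whose protein marks Treg and some other activated T cells, rose in B16. Its early B16 values were 7.96 and 7.69 on control and 8.12 and 8.30 on deleted arrays. At day 12 they were 6.05 and 6.34 versus 8.51 and 7.73, and on day 18 5.78, 5.09 and 5.68 versus 6.32, 6.07 and 5.97. The deleted arrays lay above all controls at each B16 day, and the gap was widest on day 12. Control values then lay lower than early, while deleted values overlapped those of the early day. Day 12 gave 1.92 ± 0.31 (3.80-fold, adjusted p = 6.97e-05), where 7.80% of all genes rose, and the call held with any 1 array left out. The early day gave 0.38 ± 0.31 and day 18 0.60 ± 0.25 (adjusted p = 0.803 and 0.111).

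MC38 values of Izumo1r were 5.05 and 5.47 versus 4.83 and 5.63 on day 6, 4.41, 4.60 and 4.06 versus 4.01, 4.46 and 4.89 on day 12, and 4.53 and 4.07 versus 4.73 and 5.08 on day 18. The groups overlapped on days 6 and 12 and were apart on day 18, and the MC38 mean was 0.22 ± 0.17 (adjusted p = 0.418). On days 6 and 12 the highest deleted values (5.63 and 4.89) were on arrays among the 3 MC38 arrays named above. The MC38 mean without those arrays is not given. Within the arrays of B16 day 18 and MC38 day 12, which share a distribution, both B16 groups lay above both MC38 groups. Macrophage genes moved with Izumo1r: at B16 day 12 the mean of 9 macrophage markers was 10.02 and 10.03 on control arrays and 5.99 and 6.59 on deleted arrays, and over the 28 arrays, centred on tumour and day, Izumo1r correlated with it at r = -0.79 (a description over arrays that share preparation and genotype). The part of this shift in the Izumo1r result was not tested.

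Ccr8, the gene for a chemokine receptor of tumour Treg, was dim and was not called between genotypes in any setting. Early B16 values were 4.58 and 5.54 on control and 4.45 and 4.11 on deleted arrays, and those at the other B16 days ran from 3.21 to 4.06. In MC38 they ran from 2.43 to 4.16, with 2 of 14 arrays above 3.64. The early B16 groups did not overlap, with controls higher, and the difference there was -0.78 ± 0.37 (adjusted p = 0.508). The genes of both its ligands, Ccl1 and Ccl8, fell in B16 by 1.44 ± 0.19 and 1.96 ± 0.25 (adjusted p = 4.51e-06 and 2.04e-06). In MC38 they were at 0.09 ± 0.19 and 0.05 ± 0.25, not called, and the tumours' effects differed (-1.53 ± 0.27 and -2.01 ± 0.35, adjusted p = 0.000406 and 0.000329).

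Il10, the cytokine gene, fell in MC38, and its differences in B16 changed sign between days. B16 values were 8.28 and 8.56 on control and 8.21 and 8.0 on deleted arrays early. They were 6.91 and 6.98 versus 8.51 and 7.96 on day 12, and 7.29, 6.51 and 7.76 versus 6.99, 7.66 and 7.67 on day 18. The deleted arrays lay below controls early, above them on day 12 and among them on day 18. At B16 day 12 Il10 rose by 1.29 ± 0.44 (2.44-fold, adjusted p = 0.0476). That call held in 8 of 28 fits with 1 array left out and was lost without any 1 of the 4 arrays compared, with adjusted p up to 0.292 (without deleted replicate 1). The B16 mean was 0.41 ± 0.24 and was not called.

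MC38 values of Il10 were 8.10 and 7.88 on control and 6.77 and 8.42 on deleted arrays on day 6. They were 7.24, 7.50 and 7.39 versus 6.0, 6.36 and 7.59 on day 12, and 8.40 and 8.02 versus 7.0 and 7.49 on day 18. The groups were apart on day 18 only, and on days 6 and 12 the 1 deleted array above the controls was the one with the most CD3 RNA in its group. Il10 fell in MC38 by 0.70 ± 0.24 (1.62-fold, adjusted p = 0.0445), by 0.85 (adjusted p = 0.0111) without both day 12 arrays numbered 3, and by 1.13 without day 6 deleted replicate 2 as well. The call held in 12 of 28 fits with 1 array left out, with an adjusted p of 0.214 without day 6 deleted replicate 1. The receptor genes Il10ra (0.00 ± 0.06) and Il10rb (-0.05 ± 0.04) were not called over the 6 settings. Of the 7 genes of IL-10 signalling, Stat3 and Jak1 rose (0.30 ± 0.06 and 0.54 ± 0.05) and Socs3, a target and inhibitor of STAT3, fell (-0.39 ± 0.08).

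**Figure D3:**
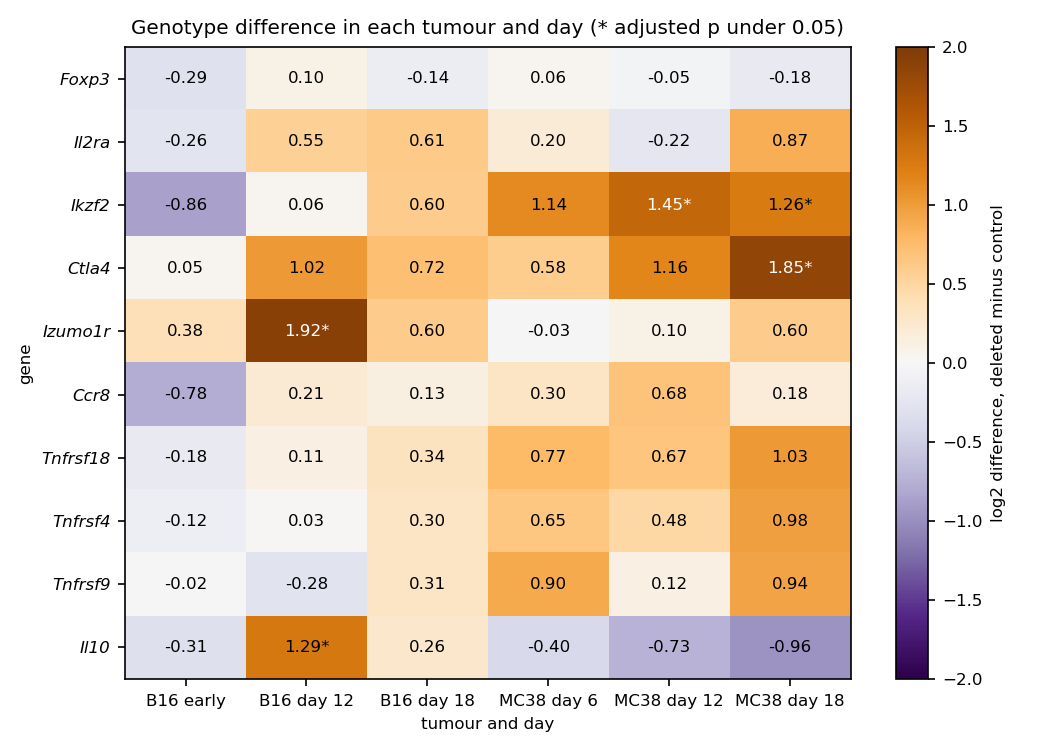
Each cell gives the log2 difference between Nrp1-deleted and control hosts (colour and number) of 1 gene (rows) at 1 tumour and day (columns). Stars mark an adjusted p under 0.05: Izumo1r and Il10 at B16 day 12, Ikzf2 at MC38 days 12 and 18, and Ctla4 at MC38 day 18.

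The levels also differed between days, and Il2ra fell with time in both tumours. Over both genotypes, day 12 against early in B16 gave falls of Il2ra (-1.15 ± 0.31, 2.22-fold, adjusted p = 0.00831), Izumo1r (-0.86 ± 0.22, adjusted p = 0.00511) and Ccr8 (-0.88 ± 0.26, adjusted p = 0.0138), against 10.1% of all genes lower, and 0 rose, against 13.1%. In MC38, day 18 against day 6 gave falls of Il2ra (-1.46 ± 0.31, 2.75-fold, adjusted p = 0.00271) and Tnfrsf4 (-1.15 ± 0.31, adjusted p = 0.0134), against 5.54% of all genes lower, and 0 rose, against 7.31%. The dimmer Il2ra probe set fell too, by 1.24 ± 0.29 in B16 and 1.25 ± 0.29 in MC38 (adjusted p = 0.00331 and 0.00758). The median over the 10 genes was -0.65 in B16 and -0.63 in MC38, beside 0.01 and 0.02 for all genes. Other lists fell in MC38 too, so a fall there was not particular to the 10 genes. There 3 of 11 T cell genes (median -0.44) and 6 of 10 IL-2 signalling genes (median -0.58) were lower, and 0 were higher. All 4 measured genes of type 2 innate lymphoid cells fell (median -1.07), while 0 of 3 CD8 and 0 of 6 NK cell genes were called. In B16, 0 of 11 T cell genes fell and 1 rose (median -0.13). The Ccr8 fall was lost without early B16 control replicate 2 (adjusted p = 0.112), early deleted replicate 1, day 12 control replicate 1 or day 12 deleted replicate 2. The Tnfrsf4 fall was lost without MC38 day 6 deleted replicate 2 (adjusted p = 0.13), day 18 control replicate 1 or day 18 deleted replicate 1.

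Within genotypes, the 3 B16 falls and the MC38 fall of Il2ra were called in control hosts, and the MC38 fall of Tnfrsf4 was called in neither genotype. In B16 controls Izumo1r fell by 1.63 ± 0.31 (adjusted p = 0.000546), Il2ra by 1.56 ± 0.44 (adjusted p = 0.0163), Il10 by 1.48 ± 0.44 (adjusted p = 0.0229) and Ccr8 by 1.38 ± 0.37 (adjusted p = 0.00974), where 6.92% of all genes fell. The Il2ra and Il10 calls were lost without any 1 of the 4 control arrays (adjusted p up to 0.11 and 0.15), and the Ccr8 call without early control replicate 2 or day 12 control replicate 1 (adjusted p = 0.222 and 0.115). In B16 deleted hosts 0 of the 10 were called by limma (0 at an unadjusted p under 0.05), where 16.2% of all genes were, with Izumo1r at -0.09 ± 0.31, Il10 at 0.13 ± 0.44 and Il2ra at -0.75 ± 0.44. The test of the difference between genotypes called only Izumo1r (1.54 ± 0.44, adjusted p = 0.0359), among 1.88% of all genes called higher. Il10 (1.60 ± 0.63, adjusted p = 0.149), Ccr8 (0.99 ± 0.52, adjusted p = 0.329) and Il2ra (0.81 ± 0.63, adjusted p = 0.58) were not called, so their falls are not shown to differ between genotypes. The Izumo1r difference held in 21 of 28 fits with 1 array left out and was lost without any of its 8 arrays other than day 12 deleted replicate 2, with adjusted p up to 0.214 (without day 12 deleted replicate 1).

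In MC38 controls Il2ra fell by 1.80 ± 0.44 (adjusted p = 0.0113), where 4.54% of all genes fell, a call lost without either day 6 control or day 18 control replicate 1 (adjusted p up to 0.12). Ctla4 (-1.61 ± 0.54, adjusted p = 0.0671), Tnfrsf4 (-1.32 ± 0.43, adjusted p = 0.061) and Izumo1r (-0.96 ± 0.31, adjusted p = 0.0554) lay close to the threshold. In MC38 deleted hosts 0 of the 10 genes were called by limma (2 at an unadjusted p under 0.05), beside 1.94% of all genes, and the test between genotypes called 0 of the 10 (0 at an unadjusted p under 0.05) and 0.0819% of all genes. Without MC38 day 6 deleted replicate 2 and both day 12 arrays numbered 3, the Ctla4 difference between genotypes was 1.93, against 1.27 ± 0.77 (adjusted p = 0.867) with all arrays. The day 6 deleted group then held 1 array (9.31), so that shift rests on the loss of the other (10.64), and day 12 does not enter the difference.

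T cell markers rose as well. All 11 measured T cell genes rose over the 6 settings (median 0.86), as did 3 of 3 CD8 genes (median 1.12) and 6 of 6 NK cell genes (median 0.89), while of 3 CD4 genes Cd4 rose (0.53 ± 0.12, adjusted p = 0.00205), 1 fell and 1 was not called. Cd4 rose in B16 (0.71 ± 0.18) and was not called in MC38 (0.34 ± 0.18, adjusted p = 0.202). Of the 11 T cell genes 5 were called higher in B16 and 11 in MC38, and of the 6 NK cell genes 2 and 6. All 3 CD8 genes rose in both tumours. The mean of the CD3 chain genes differed by 0.94 over the 6 settings, 0.76 in B16 and 1.11 in MC38. Without the 3 MC38 arrays the CD3 difference was 0.74 over the 6 settings and 0.71 in MC38, no longer above that in B16, and the median of the 11 T cell genes was 0.65 over the 6 settings. The CD3 difference between tumours was not called for Cd3d or Cd3e with all arrays (adjusted p = 0.314 and 0.935). Cd3g and Cd247 are not given for that test, so this does not speak for the CD3 chains together.

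The genes were next set against the CD3 chains, by subtracting the CD3 mean of each array from every gene. On this scale a value of 0 means a change by as much as the CD3 genes. Over the 6 settings, 0 of the 10 genes were higher (0.0468% of all genes) and 7 were lower (98.0% of all genes, whose median was -0.96), so a call of lower is what nearly any gene gives. The 3 not called were Ctla4 (-0.04 ± 0.19, adjusted p = 0.842), Ikzf2 (-0.33 ± 0.19, adjusted p = 0.084) and Izumo1r (-0.34 ± 0.21, adjusted p = 0.102), and Ikzf2 was called lower (-0.32, adjusted p = 0.0154) without both MC38 day 12 arrays numbered 3. Furthest below the CD3 genes were Il10 (-1.08 ± 0.19, adjusted p = 1.52e-07) and Foxp3 (-1.02 ± 0.20), the latter with all its values under the median of all values. In B16 0 were higher and 6 lower (0.0643% and 82.9% of all genes), and in MC38 0 and 5 (0.0936% and 97.2%). In MC38, Ctla4 (0.09 ± 0.27) and Ikzf2 (0.17 ± 0.27) lay closest to the CD3 genes, and in B16 Izumo1r (0.21 ± 0.29) and Ctla4 (-0.16 ± 0.27). None of these 4 values was called, and none shows that the genes and the CD3 chains changed by the same amount.

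**Figure D4:**
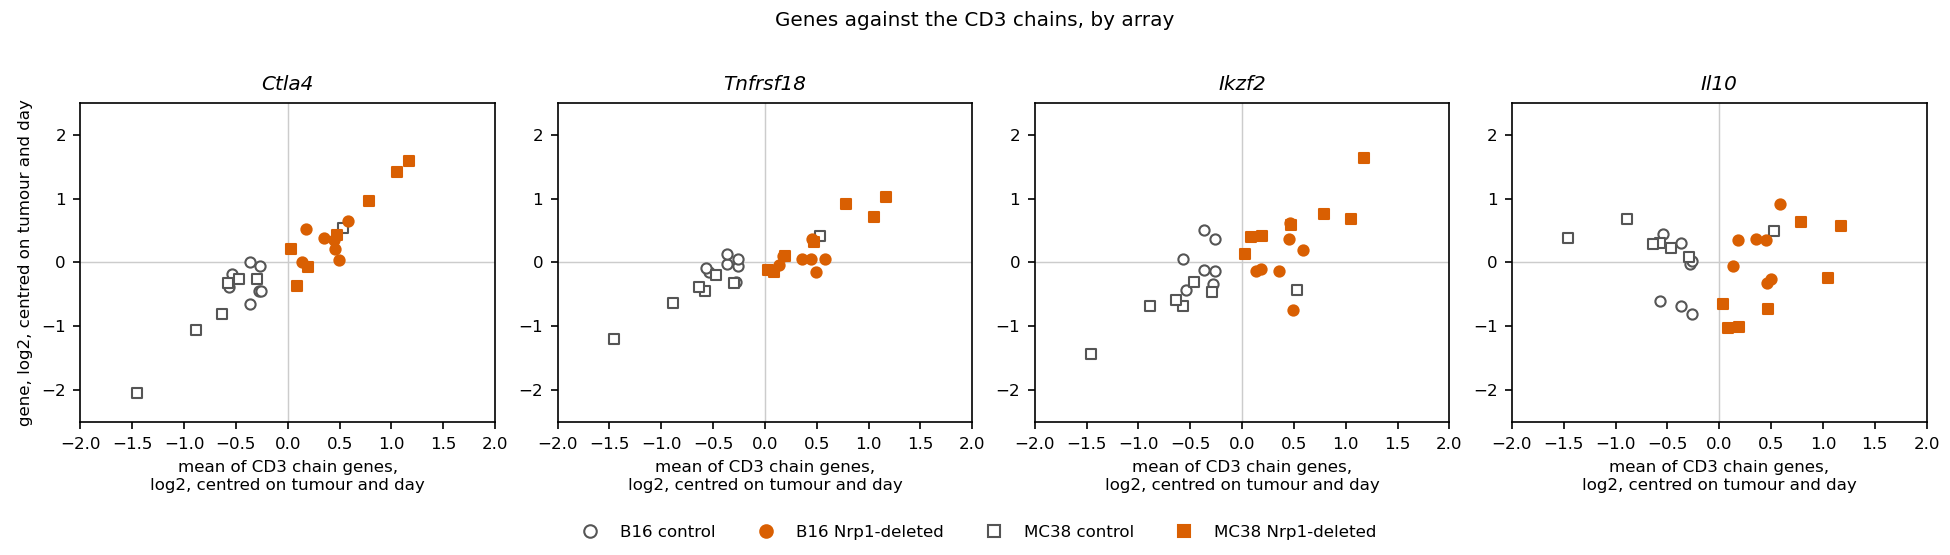
The log2 value of 4 genes on each array (y axis) is plotted against the mean of the 4 CD3 chain genes on the same array (x axis), both centred on the mean of their tumour and day, with B16 as circles, MC38 as squares, control open and Nrp1-deleted filled. Ctla4, Tnfrsf18 and Ikzf2 rise with the CD3 genes over the 28 arrays (r = 0.93, 0.88 and 0.74), and Il10 does not (r = -0.01).

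Over the 28 arrays, centred on tumour and day, the genes fell along a range of likeness to the CD3 chains. Ctla4 (r = 0.93), Tnfrsf18 (0.88), Tnfrsf4 (0.80), Ikzf2 (0.74), Tnfrsf9 (0.74), Izumo1r (0.64), Il2ra (0.58) and Ccr8 (0.45) had positive correlations, and Il10 (-0.01) and Foxp3 (-0.36) did not. Without the 3 MC38 arrays (25 arrays) the correlation was 0.88 for Ctla4, 0.80 for Tnfrsf18, 0.65 for Tnfrsf4, 0.64 for Izumo1r, 0.52 for Tnfrsf9, 0.51 for Ikzf2, 0.38 for Il2ra and 0.04 for Ccr8, whose likeness to the CD3 chains thus rested on those arrays. These are descriptions over arrays that share tumours, genotype and preparation, without a test. The genes most like Ctla4 were its neighbour Icos (r = 0.97), the T cell receptor kinase gene Zap70 (0.96) and Cd3d (0.95). Tnfrsf18 and Tnfrsf4 were each most like the other (r = 0.94), and Tnfrsf9 was most like Tnfrsf4 (0.92) and Tnfrsf18 (0.91). Cd2 (0.93), a T cell adhesion gene, lay between these for Tnfrsf18. For Ikzf2 the closest were Nlrc3 (0.89), Ppm1k (0.88) and Il18r1 (0.88).

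Markers of other cells moved with the comparisons too. Over the 6 settings all 9 macrophage genes fell (median -1.16), and they did so in B16 (9 of 9, median -2.08) and not in MC38 (0 of 9 called, median -0.25). Of 4 measured genes of type 2 innate lymphoid cells, which can express Il2ra, 3 rose (3 in MC38, 1 in B16), with group means of their log2 values between 4.16 and 6.20. Of 6 basophil and mast cell genes 5 rose in B16 and 0 were called in MC38. Of 5 mature dendritic cell genes 4 fell in B16 and 1 in MC38, 0 of 4 B cell genes were called, and 2 of 5 fibroblast genes fell. The 6 melanocytic genes fell in B16 as a mean of the 3 days, with control and deleted group means of 8.57 and 6.37 on day 12 and 10.75 and 7.55 on day 18, but 8.29 and 8.44 early. They lay between 3.72 and 4.04 on all MC38 arrays. The part of these shifts in the values of the 10 genes was not tested.

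Other genes linked to Treg did not move in a common direction. Of 21 measured, 7 rose and 6 fell over the 6 settings (6 and 6 in B16, 5 and 1 in MC38), with a median of 0.05 beside -0.03 for all genes. Gata3, a factor of several T cell and innate lymphoid subsets, rose by 1.01 ± 0.15 (adjusted p = 1.32e-05), and Prdm1, a factor of effector lymphocytes, rose by 0.50 ± 0.07 (adjusted p = 7.36e-06). Ebi3, a subunit of IL-35 and IL-27 that dendritic cells also make, fell by 0.88 ± 0.10 (adjusted p = 3.42e-07), and Il1r2, a decoy receptor for IL-1 that myeloid cells also express, fell by 0.89 ± 0.14 (adjusted p = 2.16e-05). Both falls were larger in B16 than in MC38 (difference -0.77 ± 0.19 for Ebi3 and -1.54 ± 0.27 for Il1r2, adjusted p = 0.0084 and 0.000382).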

How the data were processed

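CD45+ cells sorted from tumours were measured on 28 single-colour arrays. The deposited values are log2 expression values, which the authors made with RMA and Partek 6.6, as named per the submitters' processing notes. The genome build was not given in the sources used here. Of 45141 probe sets, 104 controls were left out, 28898 name 1 gene, 551 several and 15588 none in the annotation, whose symbols can be old. The brightest probe set, by its mean on the 28 arrays, stood for each of 17097 genes, with no further normalization and no filter on low values. limma 3.58.1 (R 4.3.3) was fitted to the 12 group means with a variance trend, and p-values were adjusted by Benjamini-Hochberg over all genes at 0.05. Errors are SE of this fit. Contrasts were genotype within each tumour and day, averaged over days and tumours, between tumours, and between days. A further fit subtracted the mean of 4 CD3 chain genes on each array. The fit was tested on simulated data. Alternatives changed the probe set rule, scaling, filter, variance model, arrays fitted and a block by replicate number, with statmod 1.5.0 for the latter, and left out each array in turn.

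The genes named are the 10 genes, their ligands and receptor partners, up to 4 genes of each list with the smallest adjusted p over the 6 settings, and, for each of the 10, the 3 genes with the highest Pearson correlation among those whose mean lay above the median of all values. Cd4 and the CD3 chain genes were named beside these as markers. The 10 genes and the lists were chosen with earlier results of these data known. An alternative scale by other T cell genes had 4 of its 6 genes measured. The number of arrays per group limits the precision.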

Additional observations from a re-analysis of the deposited data

Results flagged for a closer look

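The genotype effect differed between the 2 tumours by the test of the difference for 3 of the 10 genes, B16 minus MC38 on the log2 scale: Ikzf2 by -1.35, Izumo1r by 0.75 and Il10 by 1.11. The genotype effect of Izumo1r also differed between days in B16, by 1.54 for day 12 minus early. The tumour differences average days that lie in different sets of arrays by distribution, and the day difference lies within 1 set.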

How the results depend on the processing

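Of 190 results on single genes, 37 were called, and 18 of these kept their call under all alternatives run while 19 lost it in at least 1; 47 uncalled results were called in at least 1. The following are counts of the 10 genes called, and the cause of each shift was not tested. Shares of all genes called under the same alternatives are not given. A shift in a count therefore cannot be read as particular to the 10 genes. In B16 the count went from 1 to 2 with compared groups only. In MC38 it went from 6 to 3 with the mean over probe sets, no trend, a robust trend, compared groups only, and the replicate block. The count for the difference between tumours went from 3 to 1 with cyclic loess. The number of calls over the 6 single combinations of tumour and day went from 5 to 1 with the mean over probe sets, to 2 with no trend, a robust trend or the replicate block, and to 14 with compared groups only. Between days it went from 3 to 8 in B16 with compared groups only, and from 2 to 4 in MC38 with array weights and with compared groups only. For genotype by time it went from 1 to 0 with cyclic loess or the replicate block, to 2 with array weights and to 4 with compared groups only. With 1 array left out the counts ran from 4 to 6 over the 6 settings, 1 to 1 in B16, 3 to 6 in MC38, 1 to 4 between tumours, 2 to 7 in single settings, 2 to 4 and 1 to 5 between days in B16 and MC38, 0 to 1 for genotype by time and 7 to 9 relative to CD3. Sign changes are listed here only where the full fit or the alternative gave a call. Those with a call in neither are not listed, such as Ctla4 at MC38 day 12 without both arrays numbered 3. Signs turned for Tnfrsf9 at MC38 day 12 without 3 MC38 arrays, a choice made after seeing the data (-0.79). They also turned for the third Tnfrsf9 probe set in MC38 (-0.01), and for the dimmer Ikzf2 probe set at MC38 day 12 (-0.09) and day 18 (-0.04). Compared groups only was not run for the mean over 6 settings, the difference between tumours or the CD3 scale. Over 14 same-numbered pairs the correlation of deviations ran from -0.28 to 0.2, with 1 over 0.1, so the numbers are not taken to pair samples. The block did lose calls, as counted above, and these losses are not read as weaker effects.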

Other observations

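The genes closest to the less T cell-like members over the 28 arrays, centred on tumour and day, were these. Il2ra was most like Irf1 (r = 0.80), Sytl3 (0.79) and Socs1 (0.78). Izumo1r was most like Rnf138 (0.89), Saraf (0.87) and Nop53 (0.86). Il10 was most like Tsc22d3 (0.81), Tagap (0.80) and Ccl3 (0.77). Ccr8 reached 0.78 with D930016D06Rik. Foxp3 reached 0.68 with Acadm, but all its values lay under the median of all values, so no likeness is read from this. Without centring, Il10 and Tagap correlated at 0.43 and Il10 and Ccl3 at 0.51, while Izumo1r and Rnf138 correlated at 0.99.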
